A study of Arabidopsis thaliana with 12 samples.

Results

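The Arabidopsis iron system was followed here through 44 loci for iron uptake, signalling, transport and storage, out of 24912 genes in the deposited data. The loci were chosen as a list of gene identifiers with a known part in iron handling. The rule itself sets no threshold on a measured value, but the list was drawn up with earlier results of these data known, so its counts beside those of all genes are a description. They cover FIT and its partner transcription factors, the IMA peptides, the uptake machinery of the root surface, coumarin synthesis, nicotianamine synthesis and metal-nicotianamine transporters, vacuolar carriers and ferritins. All 44 were listed in both root tables, 43 in the leaf PS-NH2 table and 42 in the leaf PS-SO3H table.

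Wild-type Col seedlings were sampled as leaf and as root at an age of 10 days, after growth on 1/2 MS medium alone, with PS-SO3H or with PS-NH2 polystyrene nanoplastics, both at 50 ug/ml. Each of the 6 groups had 2 libraries, 12 in all, and the labels do not say whether they came from separate plants, so p-values measure only the spread between these libraries. The authors deposited 4 tables, each of 1 particle against control in 1 tissue, with a fitted level per group and no value per library. That level is given in reads over size factors, and all levels, log2 fold changes (treated over control) and adjusted p-values against control given for single genes are those of the authors' deposited tables. A gene is said to have risen or fallen where the authors' adjusted p was below 0.05, and the standard error (SE) beside a log2 fold change was recovered from that fold change and its p-value, which assumes that the p came from a normal quantile. The fitted levels of a group are scaled and are not read totals, so library depth is unknown. The SE is used as the measure of precision, except at levels near 0. In leaf with PS-NH2 it was 0.193 for MTP8 (mean level 0.254) and 0.537 for FIT (mean level 17.8). A small SE near 0 is thus no mark of precision. In RNA from a whole organ, fewer cells of a type and less RNA per cell cannot be told apart.

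Roots of Arabidopsis take up iron by reduction: a proton pump acidifies the soil around the root, a reductase at the root surface turns ferric into ferrous iron, secreted coumarins mobilise ferric iron, and the carrier IRT1 brings ferrous iron into the cell. The basic helix-loop-helix (bHLH) factor FIT switches on much of this machinery together with BHLH38, BHLH39, BHLH100 and BHLH101, the small IMA peptides act upstream as iron deficiency signals, and the BTS family of ubiquitin ligases restrains the response. Inside the plant, nicotianamine and YSL carriers move iron between tissues, the vacuole takes up the surplus, and ferritins store it in plastids.

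The 250 bases before the start of the 4 partner factors and of the peptide genes IMA1 and IMA2 are shown because 5 of these 6 regulators changed in root, BHLH101 being the exception, 5′ to 3′ on the gene's own strand, from the RefSeq assembly TAIR10.1. Capitals mark CANNTG, the general E-box that bHLH proteins bind, which reads the same on both strands and of which CACGTG (the G-box) is 1 form.
BHLH38, chr3:21085246-21085495, minus strand: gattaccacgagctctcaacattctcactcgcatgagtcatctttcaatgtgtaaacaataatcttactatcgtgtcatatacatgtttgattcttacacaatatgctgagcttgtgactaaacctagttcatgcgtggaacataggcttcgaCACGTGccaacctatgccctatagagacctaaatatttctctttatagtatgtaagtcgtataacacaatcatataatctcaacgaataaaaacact
BHLH39, chr3:21087711-21087960, minus strand: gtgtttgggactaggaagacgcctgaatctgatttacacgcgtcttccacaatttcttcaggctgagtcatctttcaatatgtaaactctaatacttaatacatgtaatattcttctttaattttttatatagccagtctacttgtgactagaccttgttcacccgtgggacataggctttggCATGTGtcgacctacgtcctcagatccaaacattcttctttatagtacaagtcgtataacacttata
BHLH100, chr2:17199455-17199704, minus strand: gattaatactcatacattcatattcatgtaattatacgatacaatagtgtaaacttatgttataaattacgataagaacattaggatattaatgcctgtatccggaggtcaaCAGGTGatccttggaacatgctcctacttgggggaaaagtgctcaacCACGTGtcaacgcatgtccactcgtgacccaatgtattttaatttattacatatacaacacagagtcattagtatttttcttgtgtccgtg
BHLH101, chr5:1139634-1139883, minus strand: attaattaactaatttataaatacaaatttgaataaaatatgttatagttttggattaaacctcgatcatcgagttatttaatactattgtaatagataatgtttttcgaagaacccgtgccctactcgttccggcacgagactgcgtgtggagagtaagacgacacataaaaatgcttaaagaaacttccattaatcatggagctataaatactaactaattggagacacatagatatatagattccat
IMA1, chr1:17385457-17385706, plus strand: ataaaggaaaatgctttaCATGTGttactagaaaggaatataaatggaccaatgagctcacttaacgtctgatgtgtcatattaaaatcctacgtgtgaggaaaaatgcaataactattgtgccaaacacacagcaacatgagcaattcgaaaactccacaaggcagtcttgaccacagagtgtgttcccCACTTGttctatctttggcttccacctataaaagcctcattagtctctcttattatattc
IMA2, chr1:17382748-17382997, plus strand: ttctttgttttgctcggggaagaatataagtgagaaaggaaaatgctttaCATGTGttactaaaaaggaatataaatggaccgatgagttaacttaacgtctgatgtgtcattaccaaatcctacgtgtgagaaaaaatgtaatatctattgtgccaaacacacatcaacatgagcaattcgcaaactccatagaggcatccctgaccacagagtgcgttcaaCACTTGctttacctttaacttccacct

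The windows of BHLH38 and BHLH100 each hold 1 CACGTG, 97 and 91 bases before the start, and that of BHLH39 holds 1 CANNTG, 67 bases before it, which is not of that form. The windows of IMA1 and IMA2 hold 2 CANNTG each, and the window of BHLH101 holds 0 of either motif. Among 24706 windows of the same length before protein-coding genes in the tables, 55.9% hold CANNTG and 6.92% hold CACGTG. Of the 44 iron genes, 29 hold CANNTG and 7 (15.9%) hold CACGTG: BHLH38, BHLH100, BTS, OPT3, MTP8, FER3 and FER4. A match describes the letters of the window and is not evidence of binding.

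IMA1 and IMA2 are also near copies of each other, which bears on how far their counts can be told apart. Their coding sequences, of 153 bases each, are aligned below with the 17 differing bases in capitals.
IMA1, chr1:17385818-17385970, plus strand: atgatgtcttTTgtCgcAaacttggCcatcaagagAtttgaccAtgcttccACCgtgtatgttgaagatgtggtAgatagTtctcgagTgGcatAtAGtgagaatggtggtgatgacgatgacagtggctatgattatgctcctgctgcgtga
IMA2, chr1:17383117-17383269, plus strand: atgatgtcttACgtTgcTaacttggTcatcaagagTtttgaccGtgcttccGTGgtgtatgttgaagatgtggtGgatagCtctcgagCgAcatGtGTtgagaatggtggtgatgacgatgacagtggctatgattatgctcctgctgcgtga
They are 88.9% identical, with an identical run of 55 bases, and the 2 genes lie 1876 bases apart on the same strand with no gene between. BHLH38 and BHLH39, also neighbours (1144 bases apart), are 83.1% identical in their coding sequence, and NAS1 and NAS2 are 83.0% identical with an identical run of 49 bases. How reads that fit both copies were counted is not given in the sources used here, so the split of counts within these pairs is uncertain. Genes on the opposite strand that are also in the tables overlap 11 of the 44, among them BHLH38 (by 386 bases), NRAMP1 (132), F6'H1 (67) and IMA3, which 2 such genes overlap by 639 and 572 bases, and FER1 is overlapped by 1334 bases of an antisense RNA gene. The strand setting of the counting is not given in the sources used here, so reads of such partners cannot be told apart.

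In control plants the share of iron genes with a higher level in root than in leaf was near that of all genes. Of 42 with a control level in both tissues, 31 (73.8%) were higher in root, against 68.6% of all 22720 genes, and the count was 28 of 42 with both tissues scaled to their median gene. The median log2 ratio of root over leaf was 2.06 against 0.53 for all genes. The root and leaf tables were normalized separately, so these ratios also carry any difference in scale between them. A ratio of 4-fold or more in favour of root was found for 21 iron genes, in favour of leaf for 2, and 19 lay between. The share of all genes past 4-fold was not computed. All genes also lay toward root, so without that share these counts cannot be read as a trait of the iron genes.

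The genes furthest to the root side came from several roles. IRT1, the main ferrous iron carrier, had a control level of 3175 in root and 2.60 in leaf, a log2 ratio of 10.25 in the PS-SO3H tables and 10.28 in the PS-NH2 tables. NAS2, a nicotianamine synthase gene listed in leaf only with PS-NH2, had a ratio of 10.57 there, from control levels of 723 in root and 0.475 in leaf. A leaf level so near 0 leaves the size of that ratio uncertain. ABCG37, an exporter of coumarins, was at 7.22 and BTSL1, a ubiquitin ligase of the BTS family, at 7.21. MTP3 (a vacuolar carrier of zinc) lay at 5.97, the ferric reductase FRO2 at 5.84, FIT at 5.79 and the coumarin enzyme F6'H1 at 5.21. The uptake genes AHA2 and NRAMP1 were at 3.91 and 2.43. The 2 genes on the leaf side were IMA3, with a level of 261 in leaf and 3.46 in root, and YSL1, with 685 in leaf and 9.33 in root. OPT3, a transporter of the phloem that carries the shoot iron signal, was also higher in leaf (5062) than in root (1358). IMA1 was higher in leaf (47.2 against 19.6 in root), as was IMA2 (65.5 against 32.3), whereas BHLH101 differed little, with 28.2 in leaf and 24.5 in root.

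Levels can be compared between genes only per length. Per kilobase of the deposited gene length, the proton pump AHA2 had the highest control level of the iron genes in root, 23871, followed by the vacuolar iron transporter-like gene VTL5 at 5041, NAS1 at 4933, FER1 at 2604 and the metal carrier NRAMP1 at 2365, and IRT1 was the sixth at 2147. In leaf the ferritin FER1 came first at 2081 per kilobase, then OPT3 at 1876, AHA2 at 1599, FER3 at 1104 and YSL3 at 1078.

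**Figure D1:**
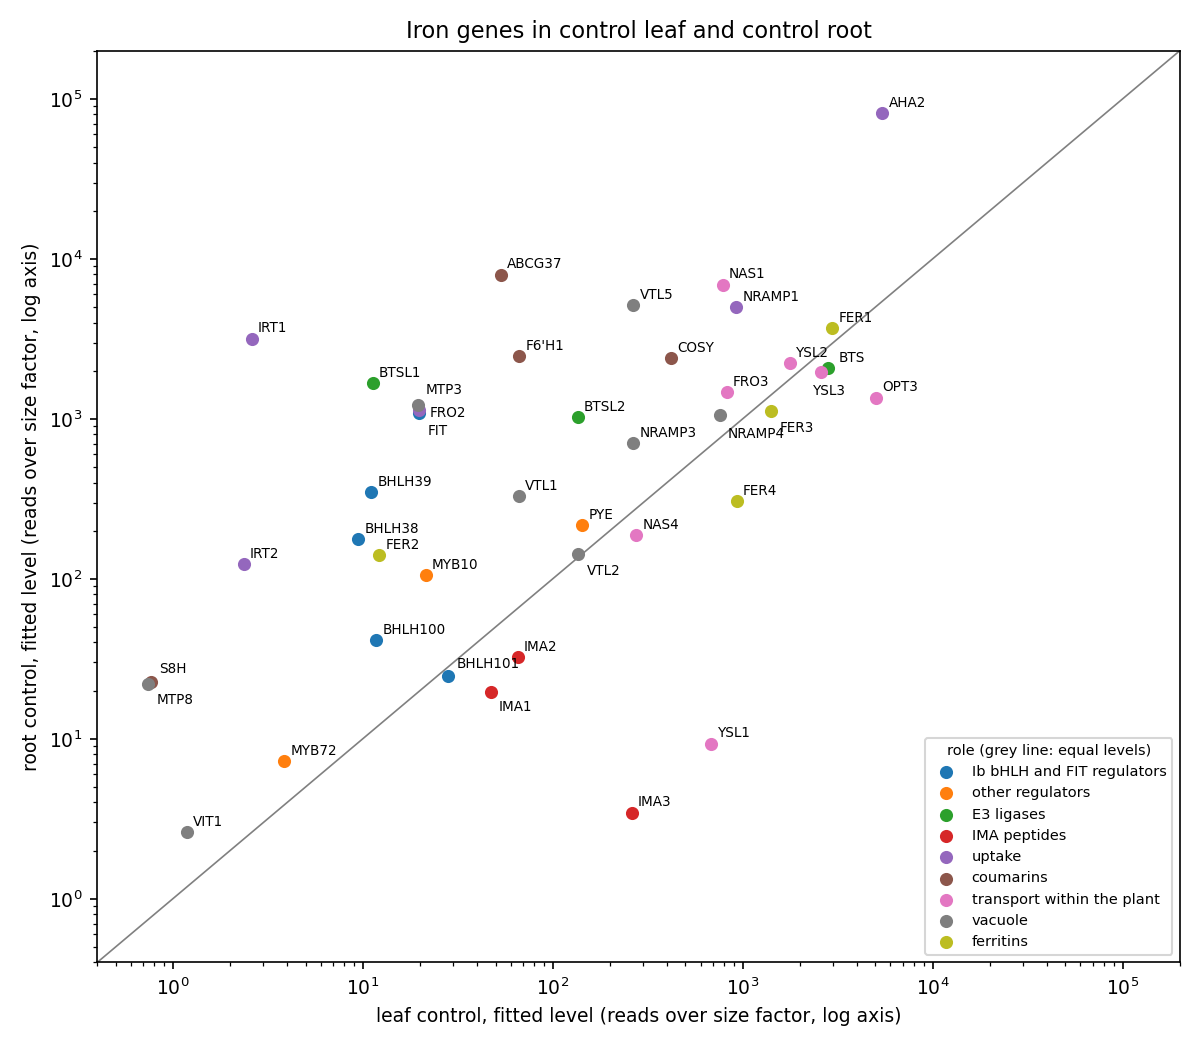
Control level of each iron gene in root (vertical, log axis) against leaf (horizontal, log axis), in fitted reads over size factor, from the authors' 2 PS-SO3H tables; each point is 1 of 42 genes and colours mark roles. IRT1, ABCG37 and BTSL1 lie far above the grey line of equal levels, and IMA3 and YSL1 far below it.

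With either particle, more of the iron genes passed the threshold in root than in leaf, where they were measured less closely. Their median SE was 0.253 (PS-SO3H) and 0.301 (PS-NH2) in leaf, and 0.172 and 0.141 in root. A mean level of 100 was reached by 21 in leaf with either particle, and by 34 and 33 in root. These counts are no test between the organs, which is given further on. In root with PS-SO3H, 6 of 44 rose and 2 fell, where 2.88% of all 23818 genes rose and 1.95% fell (4.84% in either direction). In root with PS-NH2, 8 of 44 rose and 2 fell, where 1.62% of 23839 genes rose and 2.7% fell (4.32% in either direction). In leaf with PS-SO3H, 0 of 42 rose and 1 fell (1.83% and 2.63% of 23529 genes, 4.46% in all), and 5 of the 42 had an unadjusted p below 0.05. In leaf with PS-NH2, 0 of 43 rose and 3 fell (3.79% and 7.4% of 23480 genes, 11.2% in all), and 9 had an unadjusted p below 0.05. In root 19 of 44 (PS-SO3H) and 18 of 44 (PS-NH2) were below that unadjusted limit. The share of all genes below it was not computed, so the counts at unadjusted p cannot be set against the shares above. The median log2 fold change of the iron genes was 0.12 with PS-SO3H and 0.14 with PS-NH2 in root, 0.03 and -0.11 in leaf, and that of all genes lay at -0.00 in each table.

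Over the 4 comparisons 18 of the 44 genes changed at least once and 26 did not, where 16.9% of all 24912 genes changed at least once. Being called with 1 particle and not the other is no test of a difference, which is given for each gene further on. YSL3 fell with PS-NH2 in both organs.

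**Figure D2:**
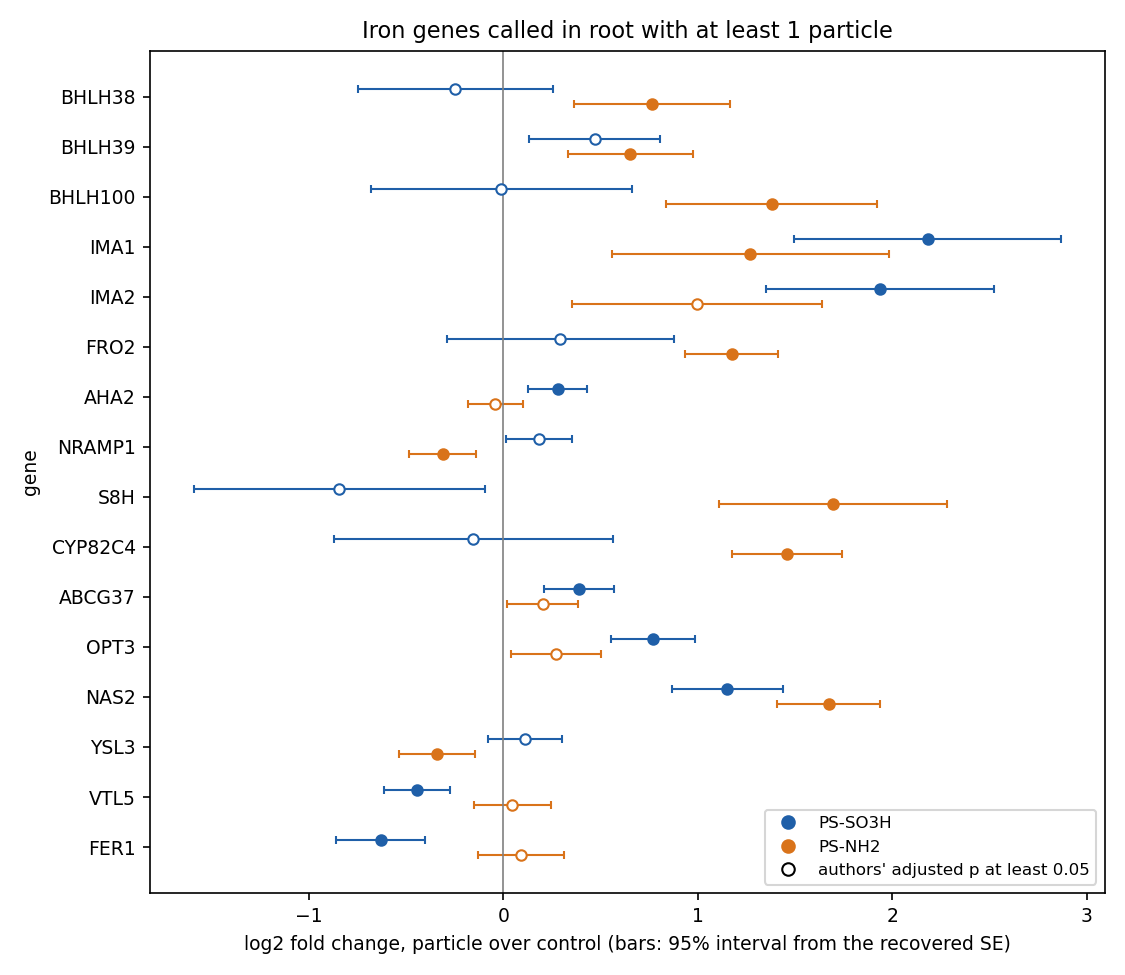
Log2 fold change against control (horizontal) of the 16 iron genes called in root with at least 1 particle, in order of role, with PS-SO3H in blue and PS-NH2 in orange; points are the authors' deposited values, bars are 95% intervals from the recovered SE, and open points did not pass an adjusted p of 0.05. The intervals are unadjusted. Those of BHLH39, IMA1, IMA2, ABCG37, OPT3 and NAS2 lie to the right of 0 with both particles, and those of FER1 and VTL5 to the left with PS-SO3H. Of those to the right, BHLH39 with PS-SO3H did not pass, nor did IMA2, ABCG37 and OPT3 with PS-NH2.

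Among the transcription factors, 3 of the 4 FIT partners rose in root with PS-NH2 and 0 with PS-SO3H. BHLH100 (AT2G41240) had a level of 49.2 in control root and 128 with PS-NH2, a log2 fold change of 1.38 ± 0.28 (adjusted p = 5.31e-05). With PS-SO3H it was level, at 41.4 in control and 41.2 treated (-0.01 ± 0.34). BHLH38 (AT3G56970) went from 189 to 320 with PS-NH2 (0.76 ± 0.20, adjusted p = 0.00727) and stood at 177 and 149 with PS-SO3H (-0.25 ± 0.26). BHLH39 (AT3G56980) went from 358 to 563 with PS-NH2 (0.65 ± 0.16, adjusted p = 0.00316), and its value with PS-SO3H was of the same sign, 348 to 483 (0.47 ± 0.17, adjusted p = 0.104). BHLH101 (AT5G04150) did not pass with either particle, at 0.66 ± 0.36 with PS-SO3H and 0.58 ± 0.35 with PS-NH2.

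FIT (AT2G28160) itself did not pass in any table. In root its level was 1095 in control and 878 with PS-SO3H (log2 -0.32 ± 0.14, adjusted p = 0.283), and 1124 and 1017 with PS-NH2 (-0.14 ± 0.13, adjusted p = 0.944). In leaf the partners were low, with control levels from 9.49 to 29.8, and none passed. The partner with the greatest leaf fold change was BHLH38 with PS-NH2, from 9.57 to 22.5 (1.24 ± 0.54, adjusted p = 0.144).

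The other regulators did not pass in any comparison. MYB10 and MYB72, MYB factors needed for growth under iron shortage, had log2 fold changes of 0.64 ± 0.23 and 0.61 ± 0.37 in root with PS-NH2 (adjusted p = 0.100 and 0.665). PYE, a bHLH repressor of iron genes, lay between -0.02 and 0.26 over the 4 tables. The ubiquitin ligases BTS and BTSL2 lay between -0.28 and 0.11. BTSL1 was at -0.24 ± 0.12 in root with PS-SO3H and 0.23 ± 0.10 with PS-NH2.

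The IMA peptide genes IMA1 and IMA2 showed the greatest rise of the iron genes in root with PS-SO3H. IMA1 (AT1G47400) went from 19.6 to 89.1, 4.54-fold (log2 2.18 ± 0.35, adjusted p = 5.69e-08), and IMA2 (AT1G47395) from 32.3 to 123, 3.82-fold (1.93 ± 0.30, adjusted p = 1.45e-08). With PS-NH2 IMA1 went from 17.8 to 43.0, 2.41-fold (1.27 ± 0.36, adjusted p = 0.0154). IMA2 went from 30.3 to 60.5 (1.00 ± 0.33), with an adjusted p of 0.0544 just outside the threshold.

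In leaf these 2 genes had positive fold changes with both particles that did not pass. IMA1 went from 47.2 to 90.9 with PS-SO3H (0.95 ± 0.33, adjusted p = 0.0716) and from 45.1 to 90.0 with PS-NH2 (1.00 ± 0.36, adjusted p = 0.0511). IMA2 went from 65.5 to 120 (0.87 ± 0.30, adjusted p = 0.0681) and from 63.0 to 109 (0.79 ± 0.33, adjusted p = 0.114). All 8 intervals of these genes over organs and particles lay above 0, the lowest bound being 0.15 for IMA2 in leaf with PS-NH2. The intervals are unadjusted and are not separate observations. The 2 genes are near copies, and both particles in an organ share their control libraries. With PS-SO3H the treated level of IMA1 was 89.1 in root and 90.9 in leaf, and that of IMA2 was 123 and 120, in tables normalized separately. IMA3 (AT2G30766), the third peptide gene, had a level of 261 in control leaf in both tables, and its log2 fold change was -0.06 ± 0.24 with PS-SO3H and 0.44 ± 0.23 with PS-NH2. Its root levels were 1.22 to 4.69 and give no measure of a change.

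**Figure D3:**
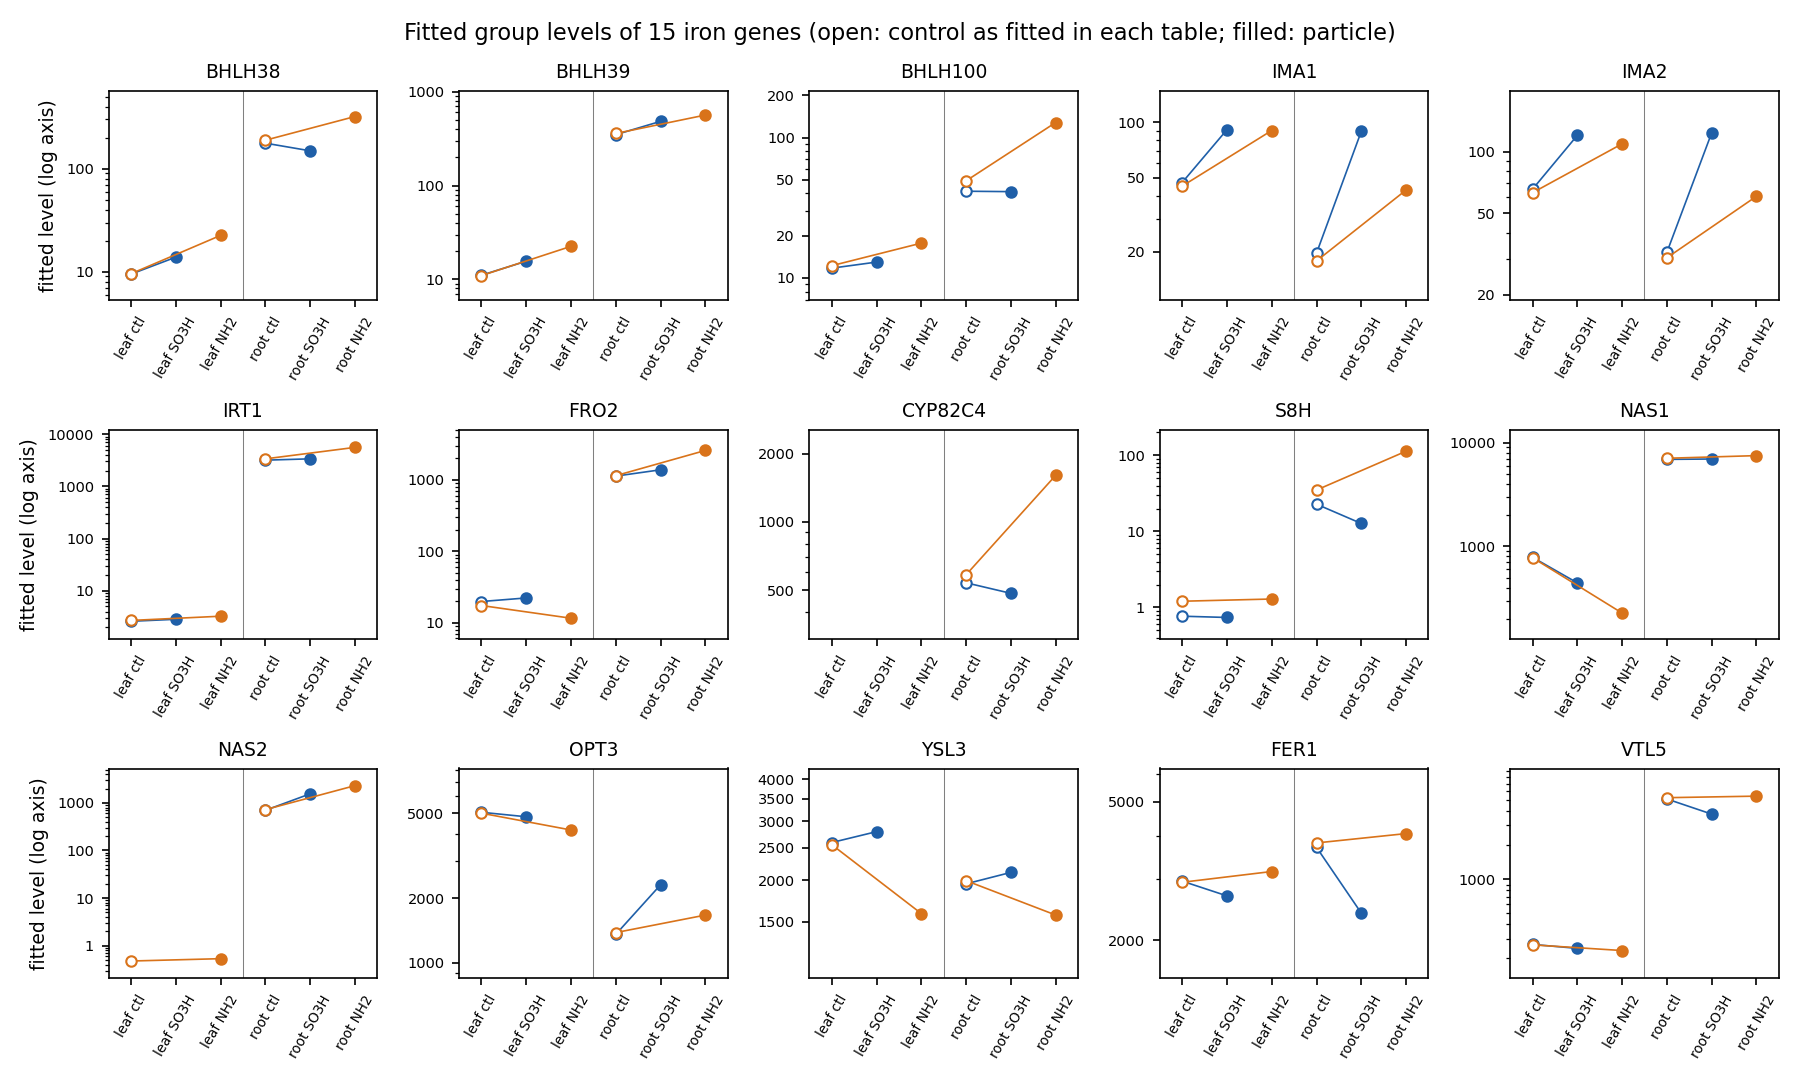
Fitted level (log axis, reads over size factor) of 15 iron genes in each group, leaf on the left and root on the right of each panel; open circles are the control as fitted in each table and filled circles the particle, with PS-SO3H in blue and PS-NH2 in orange. In root the lines of IMA1 and NAS2 go up with both particles, those of CYP82C4 and S8H go up with PS-NH2, and that of NAS1 goes down with both particles in leaf.

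Of the uptake machinery, FRO2 rose with PS-NH2 in root and AHA2 with PS-SO3H. FRO2 (AT1G01580), the ferric reductase, went from 1145 to 2584 with PS-NH2, 2.26-fold (1.17 ± 0.12, adjusted p = 3.55e-19), and from 1129 to 1384 with PS-SO3H (0.29 ± 0.30, adjusted p = 0.994). IRT1 (AT4G19690) had a level of 3362 in control and 5579 with PS-NH2 (0.73 ± 0.24), with an adjusted p of 0.0542, and 3175 and 3367 with PS-SO3H (0.08 ± 0.34). IRT2, its neighbour and a carrier of internal membranes, was at 124 and 214 with PS-SO3H (0.79 ± 0.38, adjusted p = 0.354) and at 93.4 and 63.2 with PS-NH2 (-0.56 ± 0.32, adjusted p = 0.574). AHA2 (AT4G30190), the main proton pump of the root, rose by a small step from 81591 to 99050 with PS-SO3H (0.28 ± 0.08, adjusted p = 0.00879) and stood at 83488 and 81180 with PS-NH2.

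NRAMP1 (AT1G80830), a carrier of manganese and iron at the plasma membrane, fell in root with PS-NH2, from 5097 to 4106 (-0.31 ± 0.09, adjusted p = 0.0118). With PS-SO3H it was at 4986 and 5661 (0.18 ± 0.09, adjusted p = 0.347). None of the 5 uptake genes passed in leaf, where IRT1 and IRT2 had levels from 1.75 to 3.26.

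Of the 5 coumarin genes, CYP82C4 and S8H rose in root with PS-NH2. CYP82C4 (AT4G31940), which makes the catechol coumarin sideretin from fraxetin, rose 2.74-fold from 584 to 1603 (1.46 ± 0.14, adjusted p = 5.73e-21). S8H (AT3G12900), which makes fraxetin from scopoletin, rose from 35.0 to 113, 3.24-fold (1.70 ± 0.30, adjusted p = 1.56e-06). With PS-SO3H they were at 538 and 483 (CYP82C4, -0.15 ± 0.37) and at 22.8 and 12.7 (S8H, -0.84 ± 0.38, adjusted p = 0.291). The control level of S8H, from the same libraries, was thus fitted as 22.8 in one table and 35.0 in the other, each table having been fitted on its own. F6'H1 (AT3G13610), the entry enzyme of scopoletin synthesis, was at 2522 and 2205 with PS-NH2 (-0.19 ± 0.10, adjusted p = 0.473) and at 2471 and 3111 with PS-SO3H (0.33 ± 0.11, adjusted p = 0.0562).

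The exporter ABCG37 (AT3G53480) rose in root with PS-SO3H, from 7960 to 10435 (0.39 ± 0.09, adjusted p = 0.000898), and was at 8148 and 9377 with PS-NH2 (0.20 ± 0.09, adjusted p = 0.339). COSY, which helps close the coumarin ring, did not pass in any table. In leaf F6'H1 fell with PS-NH2 from 56.8 to 21.0, 2.71-fold (-1.44 ± 0.45, adjusted p = 0.0152), while its leaf value with PS-SO3H was positive, 66.8 to 122 (0.86 ± 0.34, adjusted p = 0.157). CYP82C4 was not listed in the leaf tables, and S8H had leaf levels from 0.739 to 1.29.

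Of the nicotianamine synthase genes, NAS2 rose in root and NAS1 fell in leaf, each with both particles. In root NAS2 (AT5G56080) went from 699 to 1553 with PS-SO3H, 2.22-fold (1.15 ± 0.14, adjusted p = 4.76e-13), and from 723 to 2308 with PS-NH2, 3.19-fold (1.67 ± 0.14, adjusted p = 7.20e-32). NAS1 (AT5G04950), the more abundant copy in root, was at 6901 and 6957 with PS-SO3H (0.01 ± 0.08) and at 7072 and 7502 with PS-NH2 (0.09 ± 0.08) in root. In leaf NAS1 fell with both, from 784 to 444 with PS-SO3H (-0.82 ± 0.19, adjusted p = 0.000889) and from 777 to 227 with PS-NH2, 3.42-fold (-1.77 ± 0.22, adjusted p = 3.77e-14). NAS2 was at 0.475 and 0.532 in leaf with PS-NH2 and not listed for PS-SO3H. NAS4 did not pass in any table, at 0.36 ± 0.21 and 0.38 ± 0.22 in leaf.

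Of the transporters within the plant, OPT3 (AT4G16370) rose in root with PS-SO3H from 1358 to 2316, 1.71-fold (0.77 ± 0.11, adjusted p = 5.30e-10). With PS-NH2 it was at 1385 and 1673 (0.27 ± 0.12, adjusted p = 0.276), and in leaf at -0.07 ± 0.16 and -0.26 ± 0.15. YSL3 (AT5G53550), a carrier of metal-nicotianamine in leaf veins and toward seeds, fell with PS-NH2 in leaf from 2552 to 1589 (-0.68 ± 0.16, adjusted p = 0.00046) and in root from 1992 to 1573 (-0.34 ± 0.10, adjusted p = 0.0194). With PS-SO3H it was at 0.11 ± 0.17 in leaf and 0.11 ± 0.10 in root. YSL1, YSL2 and the mitochondrial reductase FRO3 did not pass, the nearest being YSL2 in leaf with PS-NH2 (-0.40 ± 0.15, adjusted p = 0.0649).

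On the storage side, FER1 and VTL5 fell in root with PS-SO3H and not with PS-NH2. FER1 (AT5G01600), a plastid ferritin whose messenger RNA is known to be low under iron shortage, went from 3701 to 2392, 1.55-fold lower (-0.63 ± 0.12, adjusted p = 4.74e-06). With PS-NH2 it was at 3809 and 4053 (0.09 ± 0.11, adjusted p = 0.994). VTL5 (AT3G25190), of the family of vacuolar iron transporter-like proteins, went from 5137 to 3776 (-0.44 ± 0.09, adjusted p = 2.61e-05), and was at 5274 and 5442 with PS-NH2 (0.05 ± 0.10).

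The other 3 ferritins did not pass in any table, FER4 in leaf with PS-SO3H coming nearest at -0.41 ± 0.15 (adjusted p = 0.115). The related VTL1 and VTL2 had negative values in root with PS-SO3H that did not pass, -0.46 ± 0.18 and -0.48 ± 0.24. Among the vacuolar carriers, MTP3, MTP8, NRAMP3, NRAMP4 and VIT1 did not pass either, NRAMP4 in leaf with PS-NH2 having an adjusted p of 0.0583 (-0.43 ± 0.16).

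The particles were next compared directly at the same dose and age, as the log2 fold change with PS-NH2 minus that with PS-SO3H, with the 2 squared SEs added, a normal p (2-sided) and Benjamini-Hochberg adjustment over all 23506 genes of the root and 23150 of the leaf. Both particles share control libraries, so this SE is too large. In root 4 of 44 genes were higher with PS-NH2 and 3 lower, where 0.974% and 2.26% of all genes were (3.24% in either direction). In leaf 0 of 42 were higher and 3 lower (0.583% and 2.59% of all genes, 3.17% in all). An unadjusted p below 0.05 was found for 6 of 42 in leaf and 18 of 44 in root. The share of all genes at that unadjusted limit was not computed.

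S8H differed most in root, by 2.54 ± 0.48 (95% interval 1.59 to 3.49, adjusted p = 2.19e-05), and CYP82C4 by 1.61 ± 0.39 (0.84 to 2.38, adjusted p = 0.00271). The root control of S8H was fitted as 22.8 beside PS-SO3H and 35.0 beside PS-NH2. That gap, 0.62 on the log2 scale, enters its difference, whose size is thus less certain. The storage genes FER1 (0.72 ± 0.16, adjusted p = 0.000733) and VTL5 (0.49 ± 0.13, adjusted p = 0.0117) were also higher with PS-NH2 than with PS-SO3H. NRAMP1 (-0.50 ± 0.12, adjusted p = 0.00366), F6'H1 (-0.53 ± 0.15, adjusted p = 0.0182) and YSL3 (-0.45 ± 0.14, adjusted p = 0.0386) were lower. In leaf the difference was -2.30 ± 0.56 for F6'H1 (-3.40 to -1.20, adjusted p = 0.00315), -0.96 ± 0.29 for NAS1 (adjusted p = 0.035) and -0.79 ± 0.23 for YSL3 (adjusted p = 0.0253).

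Several genes that passed with 1 particle alone did not pass as a difference. BHLH100 differed by 1.39 ± 0.44 (0.52 to 2.25, adjusted p = 0.0509), BHLH38 by 1.01 ± 0.33 (0.37 to 1.65, adjusted p = 0.0591), FRO2 by 0.88 ± 0.32 (0.25 to 1.51, adjusted p = 0.135), OPT3 by -0.50 ± 0.16 (adjusted p = 0.0598) and AHA2 by -0.32 ± 0.11 (adjusted p = 0.0675). A covariance for the shared controls was then taken out by subtracting the smaller of the 2 squared SEs, which shrinks the SE. That amount assumes the share of the controls in the variance and was not estimated. With it these 5 passed, and the count in root rose to 17, 10 higher and 7 lower (2.74% and 5.7% of all genes, 8.44% in all). In leaf it rose to 5, 0 higher and 5 lower, where 2% and 5.44% of all genes were (7.44% in all). BHLH39 differed by 0.18 ± 0.24, and IMA1 and IMA2 by -0.91 ± 0.51 (-1.90 to 0.08) and -0.94 ± 0.44 (-1.81 to -0.07), and none of these 3 passed under either SE, with adjusted p = 0.771, 0.114 and 0.0504 under the smaller one. These intervals do not show that the particles act alike on the IMA genes.

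**Figure D4:**
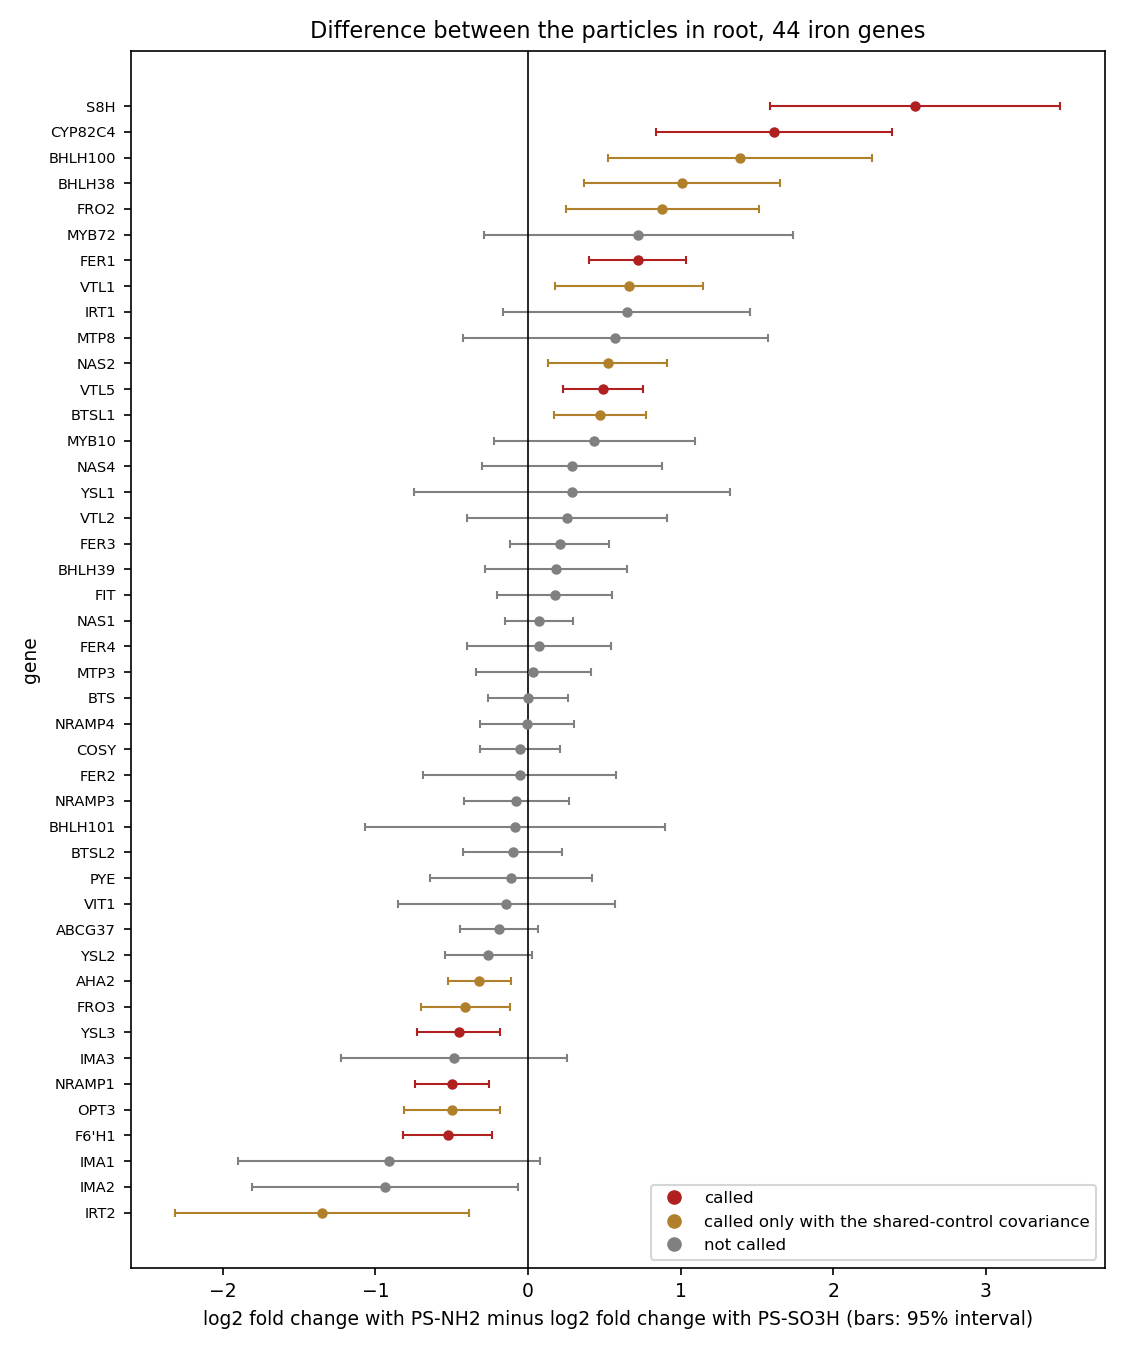
Difference between particles in root (log2 fold change with PS-NH2 minus that with PS-SO3H, horizontal) for all 44 iron genes, with 95% intervals from the summed squared SEs. Red genes passed an adjusted p of 0.05, ochre genes passed only with an assumed covariance of the shared controls taken out, and grey genes passed with neither. S8H, CYP82C4, FER1 and VTL5 are the red genes to the right of 0, and NRAMP1, F6'H1 and YSL3 those to the left.

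Between organs, the effect of PS-SO3H was higher in root than in leaf for 2 of 42 genes and lower for 0, where 1.63% and 0.902% of 22720 genes were (2.54% in all). They were OPT3, by 0.84 ± 0.20 (adjusted p = 0.0017), and NAS1, by 0.83 ± 0.21 (adjusted p = 0.00493). With PS-NH2 it was higher for 4 of 43 and lower for 0 (4.59% and 1.99% of 22714 genes, 6.58% in all): NAS1 by 1.86 ± 0.23 (1.41 to 2.31, adjusted p = 3.96e-13), FRO2 by 1.77 ± 0.56 (adjusted p = 0.0281), S8H by 1.60 ± 0.52 (adjusted p = 0.0342) and NAS2 by 1.51 ± 0.29 (adjusted p = 1.83e-05). In leaf S8H and NAS2 were near 0, at most 1.29 and 0.532, so no leaf effect could be measured and their difference restates the root fold change. FRO2 was low there too, at 17.4 in control and 11.5 with PS-NH2 (-0.59 ± 0.55). IMA1 and IMA2 did not differ past the threshold between organs with either particle, by 1.24 ± 0.48 and 1.06 ± 0.42 with PS-SO3H and 0.27 ± 0.51 and 0.20 ± 0.46 with PS-NH2. The tables of the organs were normalized separately.

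The SEs of some uptake and coumarin genes were unusual in root. A typical SE for a gene at a given level is taken as the median of the 500 genes nearest in level. IRT1 had an SE of 0.336 in the root PS-SO3H table, 3.66 times that typical value (0.0918), FRO2 2.73 times (0.298 against 0.109) and CYP82C4 2.55 times (0.366 against 0.143). Only 0.503% of 16103 genes with a level of 100 or more reached 2.5 times in that table, whereas 3 of 34 iron genes at that level did. In the root PS-NH2 table IRT1 alone of the iron genes did so, at 2.79 times, and FRO2 and CYP82C4 stood at 1.23 and 1.28 times. In leaf 0 of 21 iron genes at that level reached it in either table. The same control libraries enter both root tables. For FRO2 and CYP82C4 the wide SE was found only where the PS-SO3H libraries entered, and for IRT1 it was found in both tables. The root fold changes of FRO2 and CYP82C4 with PS-SO3H were thus measured less closely than is usual at their level. With no value per library it cannot be told which single library set these genes apart. This comparison, with its limit of 2.5 times, was added after the SEs had been seen. The count of 3 of 34 is therefore a description and no test. The 3 genes were measured in the same libraries and are not separate observations.

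**Figure D5:**
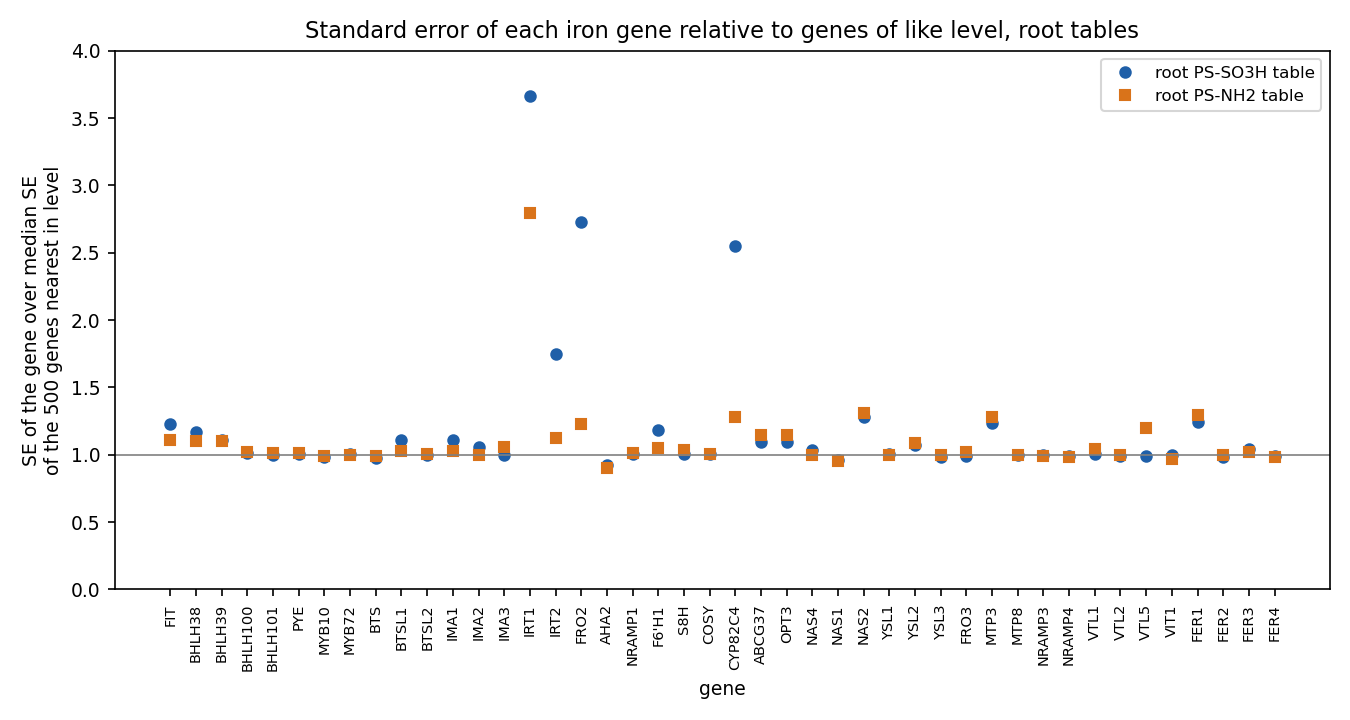
SE of the log2 fold change of each iron gene over the median SE of the 500 genes nearest in level, for root with PS-SO3H (circles) and with PS-NH2 (squares); the grey line marks a ratio of 1. IRT1, FRO2, CYP82C4 and IRT2 stand above the rest in the PS-SO3H table, and IRT1 also in the PS-NH2 table.

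Markers of other cell types moved in root too, where 4.84% of all genes changed with PS-SO3H and 4.32% with PS-NH2. The summed level of 6 root hair markers went from 3477 to 5361 with PS-SO3H, with 3 of 6 rising (COBL9, EXPA7 and EXPA18), and from 3397 to 2732 with PS-NH2, with EXPA18 falling. Of 6 endodermis markers, CASP5 rose with PS-SO3H (summed level 7166 to 8404) and 0 changed with PS-NH2 (7298 to 6546). In root, 6 markers of green tissue went from 6623 to 5308 with PS-SO3H, 3 falling (CAB2, LHCB3 and CA1), and from 6816 to 7845 with PS-NH2, with RBCS1A rising and CAB2 and CA1 falling. In leaf the green tissue sum lay between 940115 and 961882, and 0 root markers changed. With PS-NH2, the leaf comparison in which NAS1, YSL3 and F6'H1 fell, 3 light-harvesting genes fell far, CAB2 by 1.72, LHCB2.1 by 1.59 and LHCB3 by 1.37 on the log2 scale, and CA1 rose by 0.38. The median of the 6 green markers there was -0.72, while the most abundant of them, RBCS1A and RCA, were at 0.24 and -0.07. None of the 18 markers was at 0 in any table. The part of these shifts in the values of the iron genes was not tested.

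Other iron genes outside the 44, 32 in all, were listed as a comparison for the pathway. In root AHA7, another proton pump, rose with PS-SO3H from 914 to 1467 (0.68 ± 0.13, adjusted p = 1.44e-05), FRO4, a copper reductase of the root, from 1355 to 2155 (0.67 ± 0.13, adjusted p = 3.71e-05), and the factor BHLH20 from 1689 to 2142 (0.34 ± 0.11, adjusted p = 0.0436), so that 3 of 30 listed rose and 0 fell. Of all genes, 2.88% rose and 1.95% fell in that comparison. With PS-NH2 0 of 32 passed in either direction, where 4.32% of all genes did. An unadjusted p below 0.05 was found for 2, and the share of all genes at that limit was not computed. FRO4 and AHA7 differed between the particles in root, by -1.41 ± 0.28 (adjusted p = 7.6e-05) and -0.78 ± 0.19 (adjusted p = 0.00362).

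In leaf, FRO6, a reductase of green tissue, fell with both particles, from 4623 to 2937 with PS-SO3H (-0.65 ± 0.15, adjusted p = 0.000571) and from 4593 to 2956 with PS-NH2 (-0.64 ± 0.14, adjusted p = 0.000133). BHLH20 fell there with both as well, by -0.71 ± 0.21 (adjusted p = 0.0162) and -0.77 ± 0.20 (adjusted p = 0.00173). These 2 were the only ones of 30 to change in leaf with PS-SO3H, where 4.46% of all genes changed. With PS-NH2, BHLH34 (-0.86 ± 0.31) and IRT3 (-0.85 ± 0.30) also fell and BHLH121 rose (0.43 ± 0.15). That gave 1 higher and 4 lower of 29 listed, where 3.79% of all genes rose and 7.4% fell.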

How the data were processed

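The data are 4 tables that the authors deposited, each of 1 particle against control in 1 tissue. The names of the deposited files give DESeq2 as the authors' method. The level of each group is a signal that the authors fitted, in reads over size factors with no division by length. Log2 fold changes were deposited as particle over control, and the p-value and adjusted p (p-value after adjustment over all genes) are the authors' own. The deposited gene length in bases was used only for levels per kilobase. Per the labels' protocols, RNA was extracted with Trizol and cDNA made from random primers, and TAIR10 is the build per the submitters' processing notes. The series' design text names SOAP2, an RPKM measure and the Audic-Claverie test beside a small RNA library, and which of these apply here is unclear. The counting program, its strand setting and its handling of reads that fit several genes were not given in the sources used here.

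The SE was recovered as the size of the log2 fold change over the normal quantile of the p-value, with 95% intervals from it. This holds for a p-value of the Wald kind, and no source used here states which kind was deposited, so the SEs and what rests on them are estimates. The median SE over the 44 genes was 0.253 and 0.301 in leaf and 0.172 and 0.141 in root (PS-SO3H and PS-NH2). Differences are of 2 log2 fold changes, with Benjamini-Hochberg adjustment over all genes of both tables. The arithmetic of this step was run on simulated data with normal errors of the size of the recovered SEs. Such a run cannot show whether those SEs, or the assumed covariance of the shared controls, hold for these libraries. The design had a branch for counts per library. The tables hold fitted levels, so its branch for fitted values was used. Alternatives were an adjusted p of at most 0.001, a log2 limit of 1, re-centring on the median gene, a mean level of at least 10, and the covariance of shared controls. For the last, the smaller of the 2 squared SEs was subtracted, an assumed and not an estimated amount. Values are given in full for genes called in at least 1 comparison, and the others by ranges and examples. The 44 genes and the other lists were chosen with earlier results of these data known. All 44 loci were found in RefSeq's TAIR10.1, used for symbols, sequences and coordinates, since the tables hold none. Python 3.11.15, pandas 2.3.3, SciPy 1.17.1, NumPy 2.4.6, Biopython 1.88 and matplotlib 3.10.9 were used.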

Additional observations from a re-analysis of the deposited data

Results flagged for a closer look

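Of the iron genes, 6 results were singled out because the effect of a particle differed between root and leaf by a test of the difference itself. They came from 2 of 42 genes with PS-SO3H and 4 of 43 with PS-NH2, where 2.54% and 6.58% of all genes differed. With PS-SO3H the log2 fold change in root minus that in leaf was 0.84 for OPT3 and 0.83 for NAS1. With PS-NH2 it was 1.77 for FRO2, 1.60 for S8H, 1.86 for NAS1 and 1.51 for NAS2. For NAS1 the root value was near 0 and the leaf value negative with both particles. For OPT3 the root value was positive and the leaf value near 0. S8H and NAS2 were near 0 in leaf, where no effect could be measured, so their values restate the root fold change and do not show that the organs responded differently. FRO2 was low in leaf, with a wide SE.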

How the results depend on the processing

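Re-centring on the median gene kept every count of called iron genes and each of 55 single results on its side of the threshold, and no result reversed under any alternative run. A limit of 1 on the absolute log2 change left 0 of 1 called gene in leaf with PS-SO3H, 3 of 8 in root with PS-SO3H and 6 of 10 in root with PS-NH2. An adjusted p of at most 0.001 left 5 of 10 in root with PS-NH2. It left 0 of 3 particle differences in leaf and 2 of 7 in root, and 0 of 2 organ differences with PS-SO3H and 2 of 4 with PS-NH2. Taking out an assumed covariance of the shared controls raised the particle differences from 3 to 5 in leaf and from 7 to 17 in root. The share of all genes that differed rose as well, from 3.17% to 7.44% in leaf and from 3.24% to 8.44% in root. For the other alternatives the share of all genes was not computed, so their counts describe the iron genes alone. Keeping genes with a mean level of at least 10 raised the calls in leaf with PS-NH2 from 3 to 5, adding IMA1 and NRAMP4, and in root with PS-NH2 from 10 to 12, adding IMA2 and IRT1. It added F6'H1 in root with PS-SO3H and BHLH100 as a particle difference in root. The count of genes higher in control root than leaf was 31, and 32, 28 and 30 with the control of the PS-NH2 tables, median scaling and upper quartile scaling, the last shifts being 0.34 and 0.24 (log2). No paired analysis was possible because the tables hold 1 fitted value per group, and leaving out each library was not run for the same reason. Depth per library is unknown, so no limit on low levels such as those of IRT1, S8H or NAS2 in leaf can be given from counts.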

Other observations

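Some genes of zinc and copper handling, from a list of 16 apart from the iron genes, also changed. In leaf the zinc pumps HMA2 and HMA4, which load zinc into the xylem, fell with both particles in the authors' deposited tables. HMA2 went from 306 to 177 with PS-SO3H (log2 -0.79 ± 0.22, adjusted p = 0.0112) and from 304 to 129 with PS-NH2 (-1.24 ± 0.24, adjusted p = 8.77e-06). HMA4 went from 646 to 443 (-0.54 ± 0.17, adjusted p = 0.0302) and from 641 to 337 (-0.93 ± 0.17, adjusted p = 3.71e-06). With PS-SO3H these were the 2 of 16 that changed in leaf, where 4.46% of all genes did. With PS-NH2 5 of 16 fell and 0 rose, where 7.4% of all genes fell and 3.79% rose. The others that fell were the zinc carrier ZIP5 (-1.07 ± 0.33), the iron superoxide dismutase FSD1 (-0.32 ± 0.10) and the copper-zinc superoxide dismutase CSD1 (-0.61 ± 0.17).

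In root the copper carrier COPT2 rose with PS-SO3H, from 2374 to 3160 (0.41 ± 0.12, adjusted p = 0.0114), and fell with PS-NH2, from 2410 to 1548 (-0.64 ± 0.12, adjusted p = 1.83e-05), in the authors' deposited tables. The difference between particles was -1.05 ± 0.17 (adjusted p = 1.4e-07). CSD1 fell with PS-SO3H from 2136 to 1283 (-0.74 ± 0.11, adjusted p = 9.82e-09) and with PS-NH2 from 2193 to 1723 (-0.35 ± 0.11, adjusted p = 0.0261). CSD2 (-0.57 ± 0.12) and the copper chaperone CCS (-0.70 ± 0.16) fell with PS-SO3H. Thus 1 of 16 rose and 3 fell there, where 2.88% of all genes rose and 1.95% fell. With PS-NH2 0 rose and 3 fell (1.62% and 2.7% of all genes), the third being the zinc carrier ZIP3, from 1270 to 711 (-0.84 ± 0.14, adjusted p = 2.42e-07).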
